A study of Mus musculus with 12 samples.

Results

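Immediate early and stress-response genes were described in mouse lung as a list of 31 genes, chosen by name. Each gene is represented by its brightest probe set over all 12 arrays, among those paired with that gene alone. All 31 were measured, of 18194 genes in all. The lungs came from C57BL/6 mice, FIZZ2 knockout or wild type, and were taken at day 21 after an endotracheal injection of bleomycin or of saline. FIZZ2, also called RELM-beta, is the secreted resistin-like protein that Retnlb encodes, and bleomycin is a drug that breaks DNA and scars the lung. The 4 groups, with 3 Affymetrix expression arrays each, were knockout bleomycin, knockout saline, wild type bleomycin and wild type saline. All lungs were perfused with PBS before RNA was taken. The labels give neither the animals' age nor the time between death and RNA extraction, and do not state that the 3 replicates of a group were separate animals, so the p-values rest on the spread between samples that may be technical.

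Immediate early genes are transcribed within minutes of a stimulus from factors already present in the cell, without new protein synthesis, and their mRNAs are short-lived. Growth factors, cytokines, stretch, cell damage and tissue handling all induce them, largely through MAP kinases that act on serum response factor at CArG boxes and through CREB at cAMP response elements. Their products include the AP-1, EGR, NR4A and KLF transcription factors, and also feedback regulators, such as the dual-specificity phosphatases that switch MAP kinases off and Zfp36, which destroys mRNAs with AU-rich elements.

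Promoter sequences are shown for 5 listed genes that changed in at least 1 comparison below. The window of each holds a CArG box or a cAMP response element (CRE), the docking sites named above. Any window of a listed gene on 1 chromosome was left out of the matches given here. Listed genes that are not shown may therefore hold these motifs too. The windows run from 250 bases before to 50 bases after a RefSeq transcript start (GRCm38.p6), and capitals mark the motif. Both strands were searched for CRE (TGACGTCA), AP-1 (TGANTCA) and the CArG box, none of which overlapped another in these windows. The windows lie at chr1:134079106-134079405, minus strand (Btg2), chr7:28379179-28379478, minus strand (Zfp36), chr10:67537619-67537918, plus strand (Egr2), chr17:26508423-26508722, minus strand (Dusp1) and chr19:53528895-53529194, plus strand (Dusp5).
Btg2: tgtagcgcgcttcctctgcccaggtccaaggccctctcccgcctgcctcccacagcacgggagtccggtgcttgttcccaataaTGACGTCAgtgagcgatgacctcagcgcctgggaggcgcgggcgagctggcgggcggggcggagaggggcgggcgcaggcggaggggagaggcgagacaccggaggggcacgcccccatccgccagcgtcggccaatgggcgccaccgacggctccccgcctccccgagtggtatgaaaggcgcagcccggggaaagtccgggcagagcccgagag
Dusp1: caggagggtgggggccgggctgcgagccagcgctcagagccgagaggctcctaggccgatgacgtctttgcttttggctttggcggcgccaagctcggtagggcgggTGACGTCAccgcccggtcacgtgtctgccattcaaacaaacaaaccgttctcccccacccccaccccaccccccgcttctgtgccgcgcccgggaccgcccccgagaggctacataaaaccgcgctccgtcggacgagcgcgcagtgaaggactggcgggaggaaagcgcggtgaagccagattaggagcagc
Zfp36: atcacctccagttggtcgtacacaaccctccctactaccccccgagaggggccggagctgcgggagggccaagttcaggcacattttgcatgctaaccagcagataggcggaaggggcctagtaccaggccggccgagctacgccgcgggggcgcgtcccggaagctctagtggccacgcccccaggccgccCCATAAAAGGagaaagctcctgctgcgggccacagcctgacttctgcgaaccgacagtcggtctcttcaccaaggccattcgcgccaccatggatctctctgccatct
Egr2: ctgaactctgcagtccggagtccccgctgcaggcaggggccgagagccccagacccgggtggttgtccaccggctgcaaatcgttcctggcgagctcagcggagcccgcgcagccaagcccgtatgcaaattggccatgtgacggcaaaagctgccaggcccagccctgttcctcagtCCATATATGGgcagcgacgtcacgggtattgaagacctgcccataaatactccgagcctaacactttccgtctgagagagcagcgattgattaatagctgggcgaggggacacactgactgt
Dusp5: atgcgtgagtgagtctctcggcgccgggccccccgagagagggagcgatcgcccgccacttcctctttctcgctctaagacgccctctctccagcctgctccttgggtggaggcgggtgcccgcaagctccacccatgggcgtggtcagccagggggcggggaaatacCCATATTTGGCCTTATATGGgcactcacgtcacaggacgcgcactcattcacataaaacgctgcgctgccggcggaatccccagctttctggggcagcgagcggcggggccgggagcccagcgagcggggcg

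The CRE starts 166 bases upstream of the start in Btg2 and 143 bases upstream in Dusp1. The CArG box starts 58 bases upstream in Zfp36, and 72 bases upstream in Egr2. Dusp5 has a pair of CArG boxes, starting 82 and 72 bases upstream. Windows were given for 24 of the 31 genes, counting any on the chromosome left out. The shares of all promoters below include that chromosome. Besides the genes shown, Csrnp1 holds AP-1 letters at 102 and 14 bases upstream, and another Egr2 window holds a CArG box of other letters. Of all 32851 promoter windows of this length, 1.79% hold the CRE, 7.81% the AP-1 motif and 1.63% the CArG box. These matches describe letters and were not tested as binding sites.

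The deleted gene, Retnlb, had log2 values of 3.49 to 3.72 in knockout bleomycin, 3.54 to 3.83 in knockout saline, 3.81 to 4.13 in wild type bleomycin, and 3.57 to 3.84 in wild type saline lungs. Its knockout and wild type arrays overlapped after saline and did not after bleomycin, where the knockout arrays were lower. All these values lie at the dim end of the arrays and were not shown to lie above background. They are therefore not a check of the deletion. The arrays had median log2 values between 5.58 and 5.68, and the markers of alveolar type 2 cells averaged 12.10 to 13.11 per array, bright on every one. In a bulk sample, fewer cells of a type and less RNA per cell cannot be told apart. The 3 prime minus 5 prime signal, which grows as RNA breaks down, was 0.64 to 1.41 for actin in wild type saline lungs and 0.42 to 0.93 on the other 9 arrays. For Gapdh it was 0.35 to 1.42 in wild type saline lungs and 0.36 to 0.77 on the others. Wild type saline replicate 2 was the highest on both, so comparisons that use it are also given without it where their calls depend on it. That holds for the brightest probe set of each gene, and other probe sets were not fitted without it.

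The listed genes did not move as 1 block. Wild type saline lungs had the lowest mean of the 4 groups for 18 of the 31 genes. The highest mean fell in wild type bleomycin lungs for 13 genes, in knockout saline lungs for 11, in knockout bleomycin lungs for 5 and in wild type saline lungs for 2. In 1 limma fit over all 12 arrays and 18194 genes, 21 of the 31 changed in at least 1 of 7 comparisons, at a Benjamini-Hochberg adjusted p under 0.05. The other 10 (Arc, Csrnp1, Dusp2, Egr3, Ier2, Ier3, Jund, Klf4, Nr4a3 and Sik1) passed in none, although other probe sets of Egr3 and Nr4a3 did. The share of all genes passing in at least 1 of the 7 was not counted. With bleomycin in wild type lungs alone 27.7% of all genes passed. The 21 thus have no matching background here, and they are not read as setting the list apart. Differences below are on the log2 scale with the SE of that fit and 3 arrays per group, and 1 unit is a doubling.

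**Figure D1:**
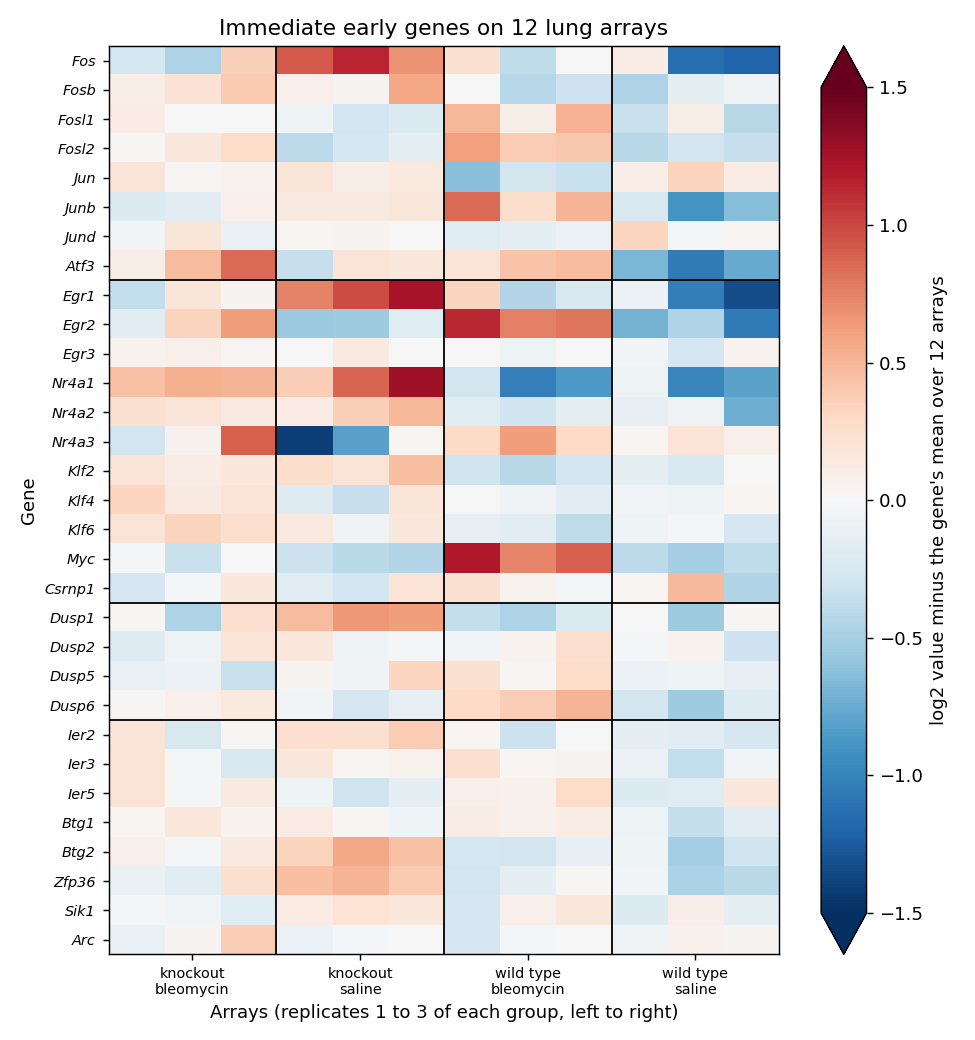
Each cell is 1 gene on 1 array, coloured by its log2 value minus the mean of that gene over the 12 arrays, with genes grouped by family. Egr1, Fos and Nr4a1 are high on the 3 knockout saline arrays, and Myc and Egr2 on the 3 wild type bleomycin arrays.

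With bleomycin in wild type lungs, 8 listed genes rose and 1 fell. Myc, Egr2, Atf3 and Junb rose over 2-fold, Fosl2, Dusp6, Fosl1 and Btg1 rose less, and Jun fell. These 9 of 31 genes compare with 27.7% of all genes, the rises with 13.3% and the fall with 14.4%. The median log2 change was 0.17 for the listed genes, against -0.04 for all genes. Arrays did not overlap between bleomycin and saline for 13 listed genes, 10 higher and 3 lower, beside 40.0% of all genes, 17.2% higher and 22.8% lower.

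Cell type markers shifted with bleomycin in wild type lungs as well. Among lists with 3 or more measured markers called in 1 direction, 6 of 8 for macrophages rose (median 1.12), as did 4 of 4 for proliferating cells (2.59) and 4 of 6 for fibroblasts (1.13, with 1 lower). Those that fell were 8 of 9 for T and NK cells (-0.76), 6 of 6 for cardiac muscle (-1.96), 5 of 9 for vascular endothelium (-0.33), 4 of 7 for neutrophils (-0.47), 3 of 4 for B cells (-1.01), 4 of 5 for alveolar type 2 cells (-0.54) and 4 of 6 for club and ciliated cells (-0.74). The cardiac muscle mean per array was 7.72 to 8.57 in wild type bleomycin lungs and 9.75 to 10.42 in wild type saline lungs. In knockout lungs 3 of 8 macrophage, 4 of 4 proliferation and 3 of 6 fibroblast markers rose, and 3 of 7 neutrophil, 2 of 9 T and NK cell, 2 of 9 endothelial and 2 of 6 smooth muscle markers fell. None of the 6 cardiac muscle markers passed there, with a median change of -1.31. The part of these cells in the changes of the listed genes was not tested.

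With bleomycin in knockout lungs, 1 listed gene passed, Fosl2, which rose. That is near the background of 3.26% of all genes, 1.98% higher and 1.29% lower. Arrays of bleomycin and saline lungs did not overlap for 16 listed genes, 10 lower and 6 higher, beside 27.0% of all genes in either direction, 11.8% lower and 15.2% higher. The 10 were Btg2, Dusp1, Dusp5, Egr1, Fos, Ier2, Junb, Klf2, Sik1 and Zfp36, with none past the threshold. The count passing was 4, 3 and 2 without wild type saline replicates 1, 2 and 3, 2 without wild type bleomycin replicate 1, 3 without knockout saline replicate 3, and 2 without knockout bleomycin replicate 1 or 3. It was 0 in limma without knockout saline replicates 1 or 2 or knockout bleomycin replicate 2, where 14, 11 and 12 genes had an unadjusted p under 0.05.

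The bleomycin response differed between the genotypes for 5 of the 31 genes, beside 5.02% of all genes, 2.03% higher and 3.0% lower. For Egr1, Fos, Junb and Myc the knockout response was lower than that in wild type, and for Jun it was higher. The median difference was -0.34 for the listed genes and 0.04 for all genes. This comparison uses the same arrays as the single responses, and those of each genotype share no array. The count was 2 without wild type saline replicate 2, wild type bleomycin replicate 1, knockout saline replicate 2 or knockout bleomycin replicate 1. It was 3 without wild type saline replicate 3, wild type bleomycin replicate 3, knockout saline replicate 1 or 3 or knockout bleomycin replicate 2. Junb and Myc passed in all 12 fits that leave out 1 array.

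**Figure D2:**
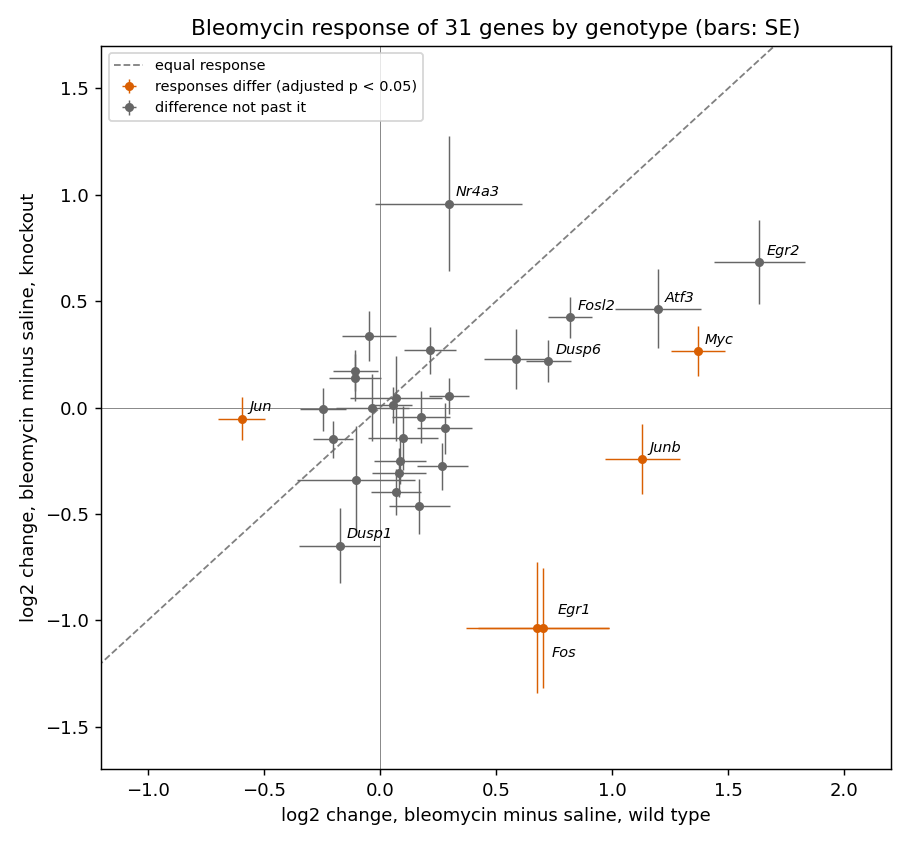
Each point is 1 listed gene, with its log2 change with bleomycin in wild type lungs on the x axis and in knockout lungs on the y axis, bars showing the SE and orange marking responses that differed. Fos and Egr1 lie almost together at 0.68 and 0.70 in wild type and -1.03 and -1.04 in knockout, and Myc and Junb lie to the right, below the line of equal response.

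After saline, 6 listed genes were higher in knockout than in wild type lungs, and none passed as lower. They were Egr1, Fos, Nr4a1, Zfp36, Btg2 and Klf2, with log2 differences between 0.44 and 1.81. Over all genes 0.489% passed, 0.297% higher and 0.192% lower. The median difference was 0.23 for the listed genes and -0.02 for all genes. Arrays did not overlap for 17 listed genes, 16 higher and 1 (Nr4a3) lower, beside 16.7% of all genes, 7.28% of all genes higher and 9.45% lower. The comparison shares the wild type saline arrays with the response in wild type lungs, and the knockout saline arrays with that in knockout lungs. All 10 genes whose knockout bleomycin arrays lay below the knockout saline arrays are among the 16 higher here. These 2 patterns are therefore not separate evidence. The count passing depended on single arrays: it was 1 without wild type saline replicate 2 and 3 without wild type saline replicate 3 or knockout saline replicate 1. It was also 4 without wild type bleomycin replicate 3, which only enters the shared spread. Without knockout saline replicate 2 or 3 limma called 0, while 16 and 14 listed genes had an unadjusted p under 0.05 (15 with all arrays).

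Some neutrophil markers were higher too. Of 7 measured, 3 were higher in knockout saline than in wild type saline lungs (S100a9 by 1.37, S100a8 by 1.26 and Csf3r, the G-CSF receptor, by 0.93) and none was lower. The mean of the 7 per array was 7.25 to 7.92 in knockout saline lungs and 6.87 to 7.01 in wild type saline lungs, with the dimmest marker at 3.98 and 4.02. Of the other cell type lists, 1 of 6 fibroblast markers was lower after saline, and none of 9 vascular endothelial, 8 macrophage, 9 T and NK cell or 6 cardiac muscle markers passed. The part of these cells in the changes of the listed genes was not tested.

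**Figure D3:**
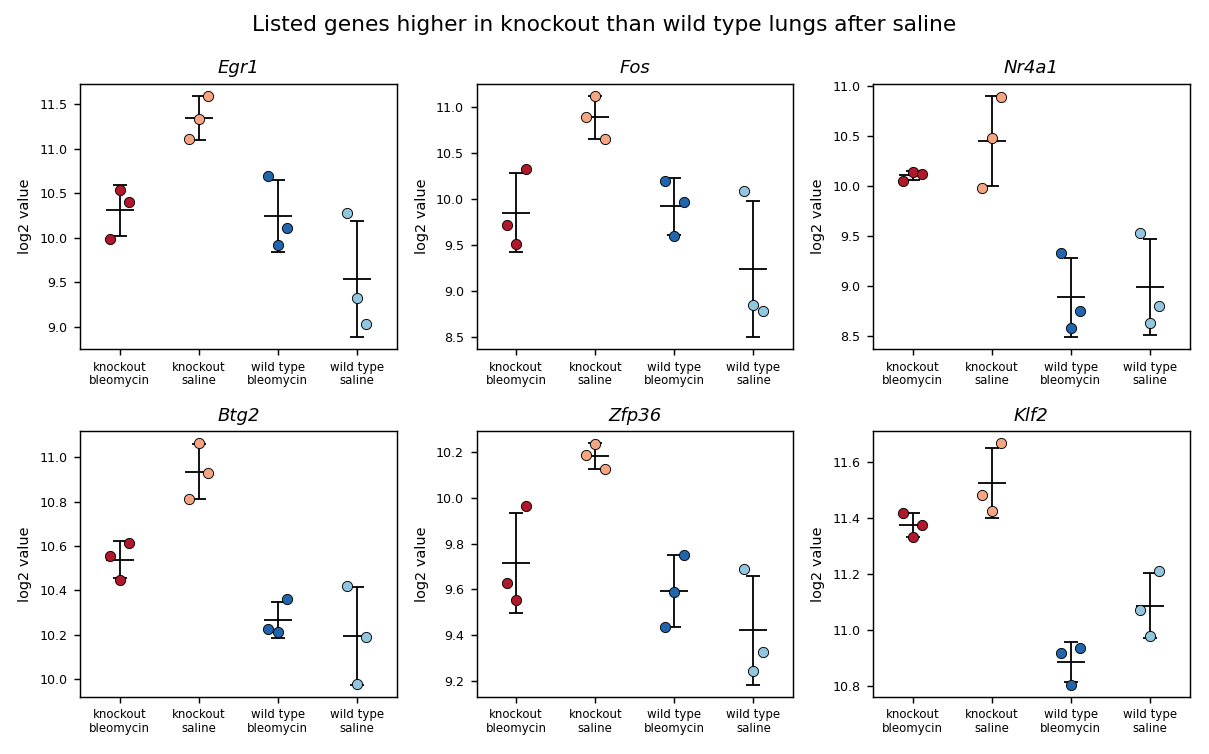
Each panel is 1 gene that differed between knockout and wild type after saline, with its log2 value on every array by group and the group mean ± SD as bars. The 3 knockout saline arrays lie above the 3 wild type saline arrays in every panel.

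After bleomycin, 10 listed genes differed between knockout and wild type lungs, 4 higher (Nr4a1, Jun, Klf2 and Klf6) and 6 lower (Myc, Junb, Egr2, Dusp5, Dusp6 and Fosl2). Over all genes 15.4% passed, 7.52% higher and 7.89% lower. Arrays did not overlap for 15 listed genes, 9 higher and 6 lower, beside 33.3% of all genes, 18.0% higher and 15.4% lower. All 6 lower genes lay higher in wild type bleomycin than in wild type saline lungs on every array. This comparison shares the wild type bleomycin arrays with the response in wild type, and the knockout bleomycin arrays with that in knockout lungs. The count was 6 without wild type saline replicate 1 or wild type bleomycin replicate 1 or 3, and 5 without knockout bleomycin replicate 1 or 2. Jun, Klf2, Klf6, Myc and Nr4a1 passed in all 12 such fits. The macrophage marker mean was 9.07 to 9.23 per array in knockout bleomycin lungs and 9.46 to 9.92 in wild type bleomycin lungs, and 3 of 8 markers were lower. The T and NK cell mean was 7.0 to 7.21 and 6.16 to 6.52 in the same groups, with 7 of 9 markers higher. In lists with 3 or more called, markers were also higher for neutrophils (5 of 7, median 0.48), alveolar type 2 cells (4 of 5, 0.53), B cells (3 of 4, 1.18), club and ciliated cells (3 of 6, 0.56) and vascular endothelium (3 of 9, 0.17). They were lower for proliferating cells (4 of 4, -1.75), fibroblasts (3 of 6, -0.71) and smooth muscle (3 of 6, -0.54), and none of 6 passed for cardiac muscle (0.91). Their part in these differences was not tested.

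**Figure D4:**
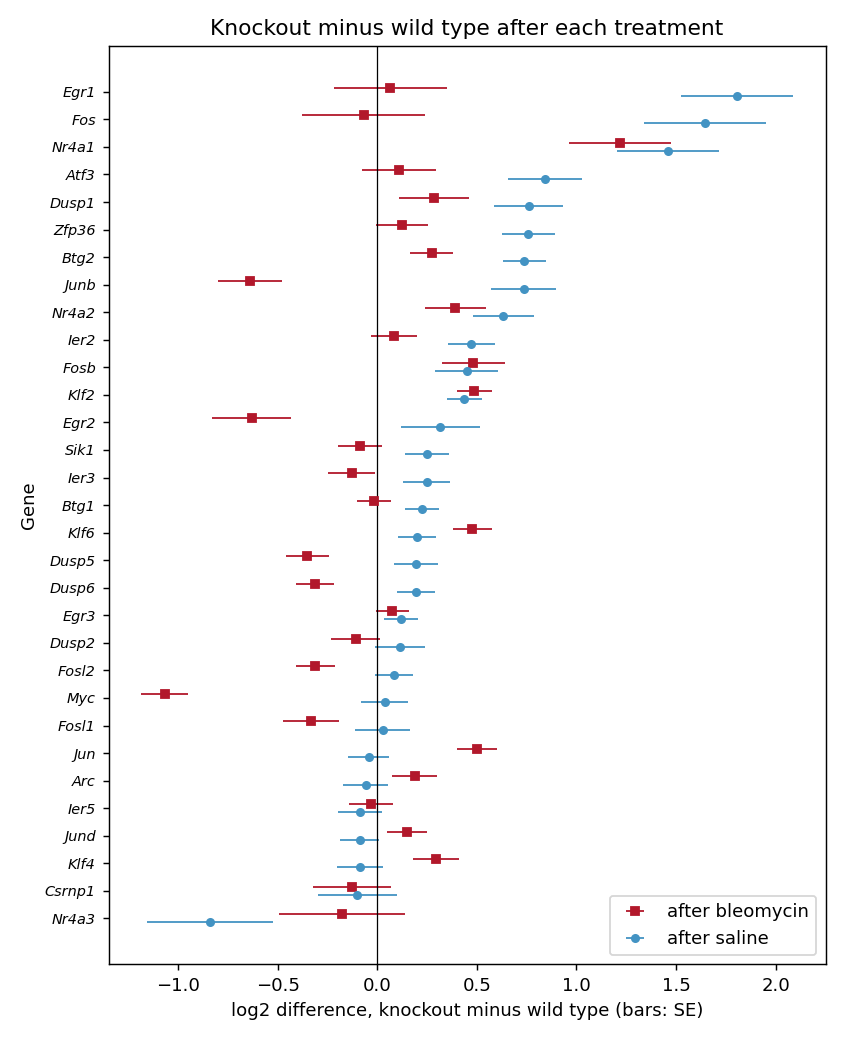
Each row is 1 listed gene, ordered by its knockout minus wild type log2 difference after saline. Red squares give the difference after bleomycin, blue circles that after saline, and bars the SE. Nr4a1 is right of 0 in both (1.22 and 1.46), Egr1 and Fos are far right after saline and near 0 after bleomycin, and Myc is left of 0 after bleomycin (-1.07).

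Averaged over both treatments, 11 listed genes were higher in knockout lungs (Atf3, Btg2, Dusp1, Egr1, Fos, Fosb, Klf2, Klf6, Nr4a1, Nr4a2 and Zfp36) and 1, Myc, was lower, beside 8.96% of all genes, 4.03% higher and 4.93% lower. Averaged over both genotypes, 9 were higher with bleomycin and 3 lower (Dusp1, Jun and Klf2), beside 27.1% of all genes, 13.4% higher and 13.7% lower. The averages use all 12 arrays and are not separate evidence from the comparisons they combine.

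The AP-1 list holds Fos and Jun proteins, which pair to bind DNA, and Atf3, a stress-induced factor that pairs with them. Fos had log2 values of 9.71, 9.51 and 10.33 in knockout bleomycin lungs, 10.89, 11.12 and 10.65 in knockout saline lungs, 10.20, 9.59 and 9.96 in wild type bleomycin lungs, and 10.09, 8.85 and 8.78 in wild type saline lungs. All knockout saline arrays lay above all others, and wild type saline replicate 1 lay above the other wild type saline arrays. Fos was 3.13-fold higher in knockout saline lungs than in wild type ones, a log2 difference of 1.64 ± 0.31 (adjusted p = 0.0351). Bleomycin and saline arrays did not overlap in knockout lungs, with a change of -1.03 ± 0.31 (adjusted p = 0.0908) that did not pass, and they overlapped in wild type lungs, 0.68 ± 0.31 (adjusted p = 0.122). The responses differed by -1.71 ± 0.43 (adjusted p = 0.0412). After bleomycin the genotypes overlapped, with a difference of -0.07 ± 0.31 (adjusted p = 0.914). The saline call no longer held once wild type saline replicate 2 or 3, wild type bleomycin replicate 3 or knockout saline replicate 1, 2 or 3 was left out (adjusted p between 0.0521 and 0.149). The difference of responses held only when wild type saline replicate 1, wild type bleomycin replicate 2 or knockout bleomycin replicate 3 was left out (adjusted p between 0.0586 and 0.0983 in the other 9 fits that leave out 1 array). The genotype difference on average, 0.79 ± 0.22 (adjusted p = 0.0394), held only when wild type saline replicate 1, wild type bleomycin replicate 1 or knockout bleomycin replicate 2 was left out (adjusted p between 0.0535 and 0.0951 in the other 9 fits that leave out 1 array).

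Junb, which pairs with Fos proteins and restrains Jun, had log2 values of 8.58, 8.62 and 8.86 in knockout bleomycin lungs, 8.91, 8.92 and 8.95 in knockout saline lungs, 9.63, 9.04 and 9.29 in wild type bleomycin lungs, and 8.54, 7.89 and 8.14 in wild type saline lungs. Wild type bleomycin arrays were the 3 highest and wild type saline arrays the 3 lowest of the 12. With bleomycin, Junb rose 2.19-fold in wild type lungs, a log2 change of 1.13 ± 0.16 (adjusted p = 0.000225). In knockout lungs all 3 bleomycin arrays lay below the saline arrays, -0.24 ± 0.16 (adjusted p = 0.481), which did not pass. The responses differed by -1.37 ± 0.23 (adjusted p = 0.00698). After saline all knockout arrays lay above wild type, 0.73 ± 0.16 (adjusted p = 0.0811), without passing, and after bleomycin all lay below, -0.64 ± 0.16 (adjusted p = 0.0182). That last call no longer held once wild type bleomycin replicate 1 or knockout bleomycin replicate 1 or 2 was left out (adjusted p between 0.0591 and 0.0772).

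Fosl2 (FRA-2), whose overexpression scars the lung in mice, had log2 values of 9.34, 9.50 and 9.60 in knockout bleomycin lungs, 8.93, 9.06 and 9.18 in knockout saline lungs, 9.95, 9.70 and 9.73 in wild type bleomycin lungs, and 8.91, 9.03 and 8.98 in wild type saline lungs. Bleomycin arrays lay above saline arrays in both genotypes, and knockout bleomycin arrays lay below wild type bleomycin arrays. It rose by 0.42 ± 0.10 (adjusted p = 0.0333) in knockout and by 0.82 ± 0.10 (adjusted p = 4.99e-05) in wild type lungs, and the difference between these, -0.40 ± 0.14 (adjusted p = 0.114), did not pass. After bleomycin the genotypes differed by -0.31 ± 0.10 (adjusted p = 0.0462). The knockout response no longer held once knockout saline replicate 1 or 2 or knockout bleomycin replicate 2 or 3 was left out (adjusted p between 0.0951 and 0.133). A second, dimmer probe set had changes of 0.12 in knockout (adjusted p = 0.647) and 0.20 in wild type lungs (adjusted p = 0.192) and a genotype difference of -0.16 after bleomycin (adjusted p = 0.395), none past the threshold, in a limma fit over all probe sets with 1 gene and with p adjusted over those. In that fit the brighter probe set did not pass in knockout lungs either (adjusted p = 0.0552), nor between the genotypes after bleomycin (adjusted p = 0.0683). The genotype difference held only when wild type saline replicate 2, wild type bleomycin replicate 2, knockout saline replicate 1 or 3 or knockout bleomycin replicate 3 was left out (adjusted p between 0.0561 and 0.18 in the other 7 fits that leave out 1 array).

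Fosl1 (FRA-1), a relative of Fosl2 whose probe set was dim, had log2 values of 4.46, 4.34 and 4.33 in knockout bleomycin lungs, 4.27, 4.05 and 4.12 in knockout saline lungs, 4.84, 4.42 and 4.86 in wild type bleomycin lungs, and 4.01, 4.43 and 3.92 in wild type saline lungs. It rose with bleomycin in wild type lungs by 0.59 ± 0.14 (adjusted p = 0.00689), although wild type saline replicate 2 (4.43) reached wild type bleomycin replicate 2 (4.42). In knockout lungs the arrays separated, with a change of 0.23 ± 0.14 (adjusted p = 0.43) that did not pass. On its other probe set, dimmer still, the change in wild type lungs was 0.17, which did not pass (adjusted p = 0.544).

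Atf3 had log2 values of 7.41, 7.79 and 8.17 in knockout bleomycin lungs, 6.98, 7.51 and 7.49 in knockout saline lungs, 7.52, 7.75 and 7.78 in wild type bleomycin lungs, and 6.63, 6.26 and 6.57 in wild type saline lungs. Wild type saline arrays were the 3 lowest, and knockout bleomycin arrays overlapped with those of both other groups. With bleomycin, Atf3 rose 2.29-fold in wild type lungs, 1.20 ± 0.19 (adjusted p = 0.000379), and had a change of 0.46 ± 0.19 (adjusted p = 0.201) in knockout lungs, which did not pass. The genotype difference was 0.84 ± 0.19 (adjusted p = 0.0801) after saline and 0.11 ± 0.19 (adjusted p = 0.75) after bleomycin, neither past the threshold. Its genotype difference on average, 0.48 ± 0.13 (adjusted p = 0.039), held only when wild type bleomycin replicate 3, knockout saline replicate 1 or knockout bleomycin replicate 1 was left out (adjusted p between 0.0512 and 0.0972 in the other 9 fits that leave out 1 array).

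Jun ran the other way. It had log2 values of 10.73, 10.56 and 10.59 in knockout bleomycin lungs, 10.72, 10.63 and 10.68 in knockout saline lungs, 9.91, 10.27 and 10.20 in wild type bleomycin lungs, and 10.64, 10.87 and 10.65 in wild type saline lungs. The wild type bleomycin arrays were the 3 lowest of the 12, and the other groups overlapped. Jun fell with bleomycin in wild type lungs, -0.59 ± 0.10 (adjusted p = 0.000782), and had a change of -0.05 ± 0.10 (adjusted p = 0.846) in knockout lungs. After bleomycin it was higher in knockout lungs by 0.50 ± 0.10 (adjusted p = 0.0054), and the responses differed by 0.54 ± 0.14 (adjusted p = 0.0479). The difference of responses held only when wild type bleomycin replicate 2 was left out (adjusted p between 0.0571 and 0.116 in the other 11 fits that leave out 1 array). The other Jun probe set, with a mean of 10.50 against 10.54, passed in none of these in the fit over all probe sets. It had a change of -0.14 with bleomycin in wild type lungs (adjusted p = 0.589), a difference of 0.54 between knockout and wild type bleomycin lungs (adjusted p = 0.0629) and a difference of responses of 0.21 (adjusted p = 0.687). The difference of responses of the brighter probe set did not pass in that fit either (adjusted p = 0.0748). On wild type saline replicate 2 the other probe set read 9.961, against 10.454 and 10.634 on replicates 1 and 3. The brighter probe set read 10.873 on replicate 2.

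Fosb lay below the middle of the arrays' range, between percentiles 35.0 and 47.7 of the probe sets on an array. It had log2 values of 4.95, 5.07 and 5.24 in knockout bleomycin lungs, 4.93, 4.90 and 5.43 in knockout saline lungs, 4.85, 4.42 and 4.54 in wild type bleomycin lungs, and 4.40, 4.72 and 4.80 in wild type saline lungs. All knockout arrays lay above all wild type arrays, and the genotypes differed on average by 0.47 ± 0.11 (adjusted p = 0.0204). It passed after neither treatment alone, 0.45 ± 0.16 (adjusted p = 0.319) after saline and 0.48 ± 0.16 (adjusted p = 0.0564) after bleomycin, and the average no longer held once wild type saline replicate 1 was left out (adjusted p = 0.0513). Jund, the AP-1 subunit most steadily present in resting cells, had values between 11.44 and 11.94 on all arrays and passed in no comparison. Its wild type bleomycin arrays were the 3 lowest of the wild type, with a change of -0.25 ± 0.10 (adjusted p = 0.0862).

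Egr1, a zinc finger factor induced by growth factors and injury, had the widest range of the 31 genes. Its log2 values were 9.98, 10.54 and 10.40 in knockout bleomycin lungs, 11.11, 11.33 and 11.59 in knockout saline lungs, 10.69, 9.92 and 10.11 in wild type bleomycin lungs, and 10.27, 9.32 and 9.03 in wild type saline lungs. Knockout saline arrays were the 3 highest of the 12, wild type saline replicates 2 and 3 were the 2 lowest, and replicate 1 lay among the bleomycin arrays. Egr1 was 3.5-fold higher in knockout saline lungs than in wild type ones, 1.81 ± 0.28 (adjusted p = 0.0128). After bleomycin the genotypes overlapped, 0.07 ± 0.28 (adjusted p = 0.909). Bleomycin lungs lay below saline lungs on every knockout array, -1.04 ± 0.28 (adjusted p = 0.0685), and overlapped with them in wild type, 0.70 ± 0.28 (adjusted p = 0.0824), neither past the threshold. The responses differed by -1.74 ± 0.40 (adjusted p = 0.0286). The saline call no longer held once wild type saline replicate 2 or knockout saline replicate 2 or 3 was left out (adjusted p between 0.0553 and 0.0754). The difference of responses no longer held once wild type saline replicate 2 or 3, wild type bleomycin replicate 1, knockout saline replicate 2 or 3 or knockout bleomycin replicate 1 was left out (adjusted p between 0.0535 and 0.076).

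Egr2, a relative that restrains T cell activation and is induced in macrophages, had log2 values of 6.13, 6.62 and 6.91 in knockout bleomycin lungs, 5.74, 5.75 and 6.11 in knockout saline lungs, 7.42, 7.05 and 7.09 in wild type bleomycin lungs, and 5.58, 5.84 and 5.23 in wild type saline lungs. Its window, shown above, carries a CArG box as that of Zfp36 does. Wild type bleomycin arrays were the 3 highest, knockout bleomycin arrays came next, and the saline groups overlapped. With bleomycin, Egr2 rose 3.1-fold in wild type lungs, 1.63 ± 0.20 (adjusted p = 5.71e-05). In knockout lungs the arrays separated with a change of 0.69 ± 0.20 (adjusted p = 0.0814) that did not pass, nor did the difference of responses, -0.95 ± 0.28 (adjusted p = 0.068). After bleomycin it was lower in knockout than in wild type lungs, -0.63 ± 0.20 (adjusted p = 0.0464), a call that held only when wild type saline replicate 2 or 3, knockout saline replicate 3 or knockout bleomycin replicate 3 was left out (adjusted p between 0.0585 and 0.188 in the other 8 fits that leave out 1 array). In the fit over all probe sets this probe set did not pass (adjusted p = 0.0696), and the other Egr2 probe set was lower, with a difference of -0.70 (adjusted p = 0.0262).

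Egr3, another member of the family, lay between 5.54 and 5.92 on all arrays on its brighter probe set and passed in no comparison. Its other probe set, at a mean log2 value of 5.72 over the 12 arrays, rose with bleomycin in wild type lungs by 1.45 (adjusted p = 0.000624) and was higher in knockout saline lungs than in wild type ones by 1.29 (adjusted p = 0.0377). The probe sets of Egr3 thus disagree, and which reads the transcript was not tested.

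Nr4a1 (NUR77), an orphan nuclear receptor that is induced in activated T cells and needed for patrolling monocytes, had log2 values of 10.05, 10.14 and 10.12 in knockout bleomycin lungs, 9.98, 10.48 and 10.88 in knockout saline lungs, 9.33, 8.58 and 8.75 in wild type bleomycin lungs, and 9.53, 8.63 and 8.80 in wild type saline lungs. Every knockout array lay above every wild type array. It was higher in knockout lungs by 1.46 ± 0.25 (adjusted p = 0.0249) after saline and by 1.22 ± 0.25 (adjusted p = 0.00643) after bleomycin, 2.75-fold and 2.33-fold. Bleomycin arrays overlapped with saline arrays in both genotypes, with changes of -0.34 ± 0.25 (adjusted p = 0.536) in knockout and -0.10 ± 0.25 (adjusted p = 0.801) in wild type lungs. The saline call no longer held once wild type saline replicate 2 or 3 or knockout saline replicate 2 or 3 was left out (adjusted p between 0.088 and 0.109), and the bleomycin call was kept in all 12 such fits.

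Nr4a2 (NURR1), a related receptor known from dopamine neurons and macrophages, had log2 values of 7.65, 7.61 and 7.55 in knockout bleomycin lungs, 7.55, 7.78 and 7.92 in knockout saline lungs, 7.24, 7.12 and 7.28 in wild type bleomycin lungs, and 7.29, 7.37 and 6.68 in wild type saline lungs. All knockout arrays lay above all wild type arrays. The genotypes differed on average by 0.51 ± 0.11 (adjusted p = 0.0104), while the values of 0.63 ± 0.15 (adjusted p = 0.116) after saline and 0.39 ± 0.15 (adjusted p = 0.101) after bleomycin did not pass. Nr4a3 (NOR1) was the only listed gene whose knockout saline arrays (6.286, 6.889 and 7.729) all lay below the wild type saline arrays (7.733, 7.909 and 7.781), by -0.84 ± 0.32 (adjusted p = 0.375), which did not pass. Its changes with bleomycin were 0.96 ± 0.32 (adjusted p = 0.127) in knockout and 0.30 ± 0.32 (adjusted p = 0.53) in wild type lungs, and its next probe set had -0.40 in wild type lungs (adjusted p = 0.0301). On that next probe set wild type saline replicate 2 read 6.835, against 6.348 and 6.332 in replicates 1 and 3. Wild type bleomycin arrays read 6.140, 5.974 and 6.197, and the probe set was not fitted without replicate 2. Nr4a3 had the largest spread within groups, a pooled SD of 0.48.

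The KLF genes encode zinc finger factors, of which Klf2 is induced in endothelium by blood flow and keeps T cells quiescent. Klf2 had log2 values of 11.42, 11.33 and 11.38 in knockout bleomycin lungs, 11.48, 11.43 and 11.66 in knockout saline lungs, 10.92, 10.81 and 10.94 in wild type bleomycin lungs, and 11.07, 10.98 and 11.21 in wild type saline lungs. Every knockout array lay above every wild type array, and in each genotype the bleomycin arrays lay below the saline arrays. It was higher in knockout lungs by 0.44 ± 0.09 (adjusted p = 0.0461) after saline and by 0.49 ± 0.09 (adjusted p = 0.00237) after bleomycin. Its changes with bleomycin, -0.15 ± 0.09 (adjusted p = 0.398) in knockout and -0.20 ± 0.09 (adjusted p = 0.104) in wild type lungs, did not pass alone, and their average, -0.17 ± 0.06 (adjusted p = 0.0488), did. The saline call held only when wild type saline replicate 3 or wild type bleomycin replicate 1 was left out (adjusted p between 0.0582 and 0.173 in the other 10 fits that leave out 1 array). The average response held only when wild type saline replicate 2 or knockout saline replicate 2 was left out (adjusted p between 0.0602 and 0.126 in the other 10 fits that leave out 1 array). Of 9 vascular endothelial markers, 3 were higher in knockout bleomycin than in wild type bleomycin lungs and 5 fell with bleomycin in wild type lungs. The part of endothelium in the values of Klf2 was not tested.

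Klf6, first linked to activated liver stellate cells, had log2 values of 10.07, 10.21 and 10.13 in knockout bleomycin lungs, 10.03, 9.82 and 10.04 in knockout saline lungs, 9.75, 9.72 and 9.50 in wild type bleomycin lungs, and 9.81, 9.86 and 9.63 in wild type saline lungs. Knockout bleomycin arrays were the 3 highest and lay above all wild type arrays. It was higher in knockout lungs by 0.48 ± 0.10 (adjusted p = 0.00517) after bleomycin, and the difference after saline, 0.20 ± 0.10 (adjusted p = 0.522), did not pass. Of 4 other probe sets of Klf6, the next brightest passed after bleomycin (0.52, adjusted p = 0.0108) and 3 did not. Klf4, a factor of endothelium and differentiating epithelium, lay between 10.75 and 11.42 and passed in no comparison, although knockout bleomycin arrays (11.42, 11.23 and 11.29) all lay above wild type bleomycin arrays (11.09, 11.04 and 10.92), by 0.29 ± 0.12 (adjusted p = 0.108). Csrnp1, a nuclear protein first described as induced by AXIN1, lay between 7.93 and 8.87 with all groups overlapping.

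Myc, a driver of growth and proliferation, was set apart by wild type bleomycin lungs. It had log2 values of 6.83, 6.53 and 6.86 in knockout bleomycin lungs, 6.55, 6.46 and 6.42 in knockout saline lungs, 8.06, 7.59 and 7.76 in wild type bleomycin lungs, and 6.47, 6.36 and 6.48 in wild type saline lungs. The wild type bleomycin arrays stood above all 9 others, knockout bleomycin arrays overlapped with knockout saline arrays, and the saline groups overlapped. With bleomycin, Myc rose 2.58-fold in wild type lungs, 1.37 ± 0.12 (adjusted p = 4.08e-06), and had a change of 0.26 ± 0.12 (adjusted p = 0.255) in knockout lungs. The responses differed by -1.10 ± 0.17 (adjusted p = 0.0048). After bleomycin Myc was lower in knockout than in wild type lungs, with a difference of -1.07 ± 0.12 (adjusted p = 0.000107), and after saline the difference was 0.04 ± 0.12 (adjusted p = 0.945). All 3 calls were kept in each of the 12 fits that leave out 1 array. Of 4 measured proliferation markers, all 4 rose with bleomycin in both genotypes, with a median change of 1.20 in knockout and 2.59 in wild type lungs.

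**Figure D5:**
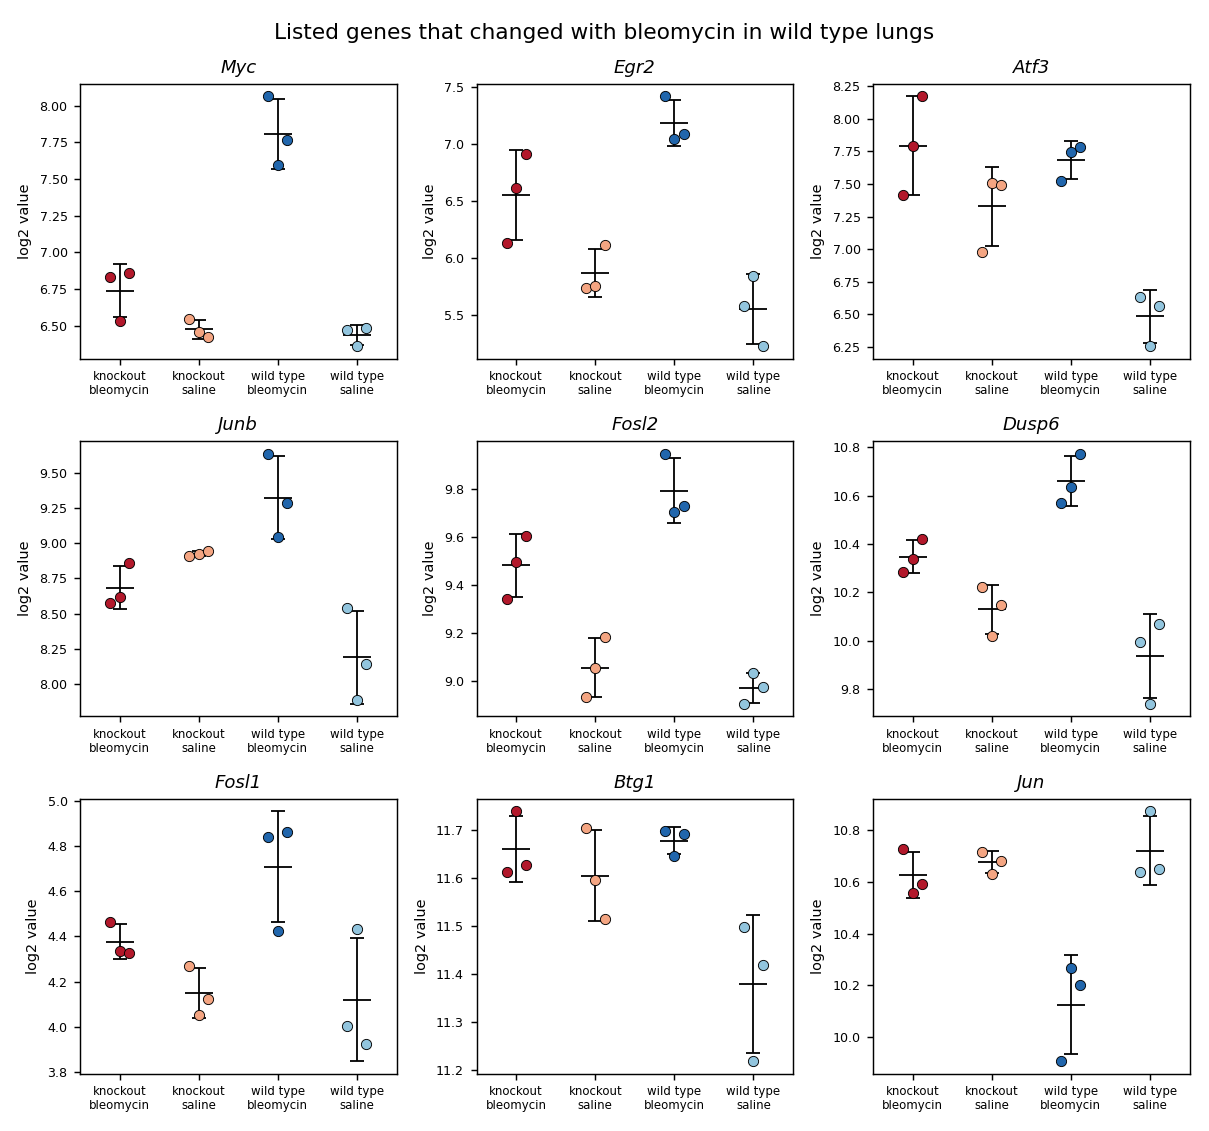
Each panel is 1 gene that changed with bleomycin in wild type lungs, with its log2 value on every array by group and the group mean ± SD as bars. Myc and Egr2 are highest on the 3 wild type bleomycin arrays, and Jun is lowest there.

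The phosphatase list holds 4 enzymes that remove phosphate from MAP kinases. Dusp6, a cytoplasmic phosphatase of ERK that is itself an ERK target, had log2 values of 10.29, 10.34 and 10.42 in knockout bleomycin lungs, 10.22, 10.02 and 10.15 in knockout saline lungs, 10.57, 10.64 and 10.77 in wild type bleomycin lungs, and 9.99, 9.74 and 10.07 in wild type saline lungs. The order of the groups was wild type bleomycin above knockout bleomycin above both saline groups, with no overlap between the bleomycin groups. Dusp6 rose by 0.72 ± 0.10 (adjusted p = 0.000134) with bleomycin in wild type lungs, and its change in knockout lungs, 0.22 ± 0.10 (adjusted p = 0.258), did not pass. The difference of responses, -0.51 ± 0.14 (adjusted p = 0.052), did not pass. After bleomycin it was lower in knockout lungs, with a difference of -0.31 ± 0.10 (adjusted p = 0.0467), a call that held only when wild type saline replicate 2 or 3 was left out (adjusted p between 0.0536 and 0.154 in the other 10 fits that leave out 1 array).

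Dusp5, a nuclear phosphatase of ERK whose window with a pair of CArG boxes is shown above, had log2 values of 7.21, 7.23 and 6.99 in knockout bleomycin lungs, 7.36, 7.26 and 7.64 in knockout saline lungs, 7.55, 7.33 and 7.60 in wild type bleomycin lungs, and 7.23, 7.25 and 7.19 in wild type saline lungs. Knockout bleomycin arrays lay below both knockout saline and wild type bleomycin arrays. The genotypes differed by -0.35 ± 0.11 (adjusted p = 0.0449) after bleomycin and the value after saline, 0.19 ± 0.11 (adjusted p = 0.587), did not pass. The bleomycin call held only when wild type saline replicate 2, wild type bleomycin replicate 2 or knockout saline replicate 2 or 3 was left out (adjusted p between 0.0541 and 0.151 in the other 8 fits that leave out 1 array).

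Dusp1 (MKP-1), a nuclear phosphatase of p38 and JNK that glucocorticoids and stress induce, had log2 values of 11.81, 11.32 and 12.04 in knockout bleomycin lungs, 12.26, 12.44 and 12.42 in knockout saline lungs, 11.43, 11.32 and 11.56 in wild type bleomycin lungs, and 11.79, 11.25 and 11.80 in wild type saline lungs. Knockout saline arrays were the 3 highest of the 12, and the other groups overlapped. It differed between the genotypes on average by 0.52 ± 0.12 (adjusted p = 0.0194), while the values of 0.76 ± 0.17 (adjusted p = 0.102) after saline and 0.28 ± 0.17 (adjusted p = 0.314) after bleomycin did not pass. With bleomycin it fell on average over genotypes, -0.41 ± 0.12 (adjusted p = 0.025), with -0.65 ± 0.17 (adjusted p = 0.066) in knockout and -0.17 ± 0.17 (adjusted p = 0.504) in wild type lungs alone, neither past the threshold. The average fall no longer held once wild type saline replicate 1 or 3, wild type bleomycin replicate 2, knockout saline replicate 2 or 3 or knockout bleomycin replicate 2 was left out (adjusted p between 0.0502 and 0.0647). Dusp2, a phosphatase of activated immune cells, lay between 6.06 and 6.61 with all groups overlapping.

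The remaining list holds IER genes, growth arrest genes, an RNA decay factor, a kinase and a synaptic gene. Btg2, a p53-inducible antiproliferative protein that recruits the deadenylase of mRNA tails, had log2 values of 10.55, 10.45 and 10.61 in knockout bleomycin lungs, 10.81, 11.06 and 10.93 in knockout saline lungs, 10.23, 10.21 and 10.36 in wild type bleomycin lungs, and 10.42, 9.98 and 10.19 in wild type saline lungs. Knockout saline arrays were the 3 highest, knockout bleomycin arrays came next, and all lay above the wild type arrays. It was 1.67-fold higher in knockout than in wild type lungs after saline, 0.74 ± 0.11 (adjusted p = 0.00895), and after bleomycin the difference, 0.27 ± 0.11 (adjusted p = 0.112), did not pass. Its differences with bleomycin were -0.40 ± 0.11 (adjusted p = 0.0704) in knockout and 0.07 ± 0.11 (adjusted p = 0.677) in wild type lungs. The saline call no longer held once knockout saline replicate 2 or 3 was left out (adjusted p between 0.0506 and 0.0535). On the second probe set, with a mean of 10.27 against 10.48, the saline difference was 0.60 and did not pass (adjusted p = 0.0771).

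Zfp36 (tristetraprolin), which binds AU-rich elements and shortens the life of cytokine mRNAs, had log2 values of 9.63, 9.56 and 9.96 in knockout bleomycin lungs, 10.18, 10.23 and 10.12 in knockout saline lungs, 9.44, 9.59 and 9.75 in wild type bleomycin lungs, and 9.69, 9.25 and 9.33 in wild type saline lungs. Knockout saline arrays were the 3 highest, with bleomycin arrays of both genotypes overlapping. It was 1.69-fold higher in knockout saline lungs than in wild type ones, 0.76 ± 0.13 (adjusted p = 0.0237). After bleomycin the difference was 0.12 ± 0.13 (adjusted p = 0.587), and the change with bleomycin in knockout lungs was -0.46 ± 0.13 (adjusted p = 0.078), neither past the threshold. The saline call no longer held once wild type saline replicate 2 or 3 or knockout saline replicate 1, 2 or 3 was left out (adjusted p between 0.08 and 0.106).

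Btg1, a relative of Btg2 high in resting lymphocytes, had log2 values of 11.61, 11.74 and 11.63 in knockout bleomycin lungs, 11.70, 11.60 and 11.52 in knockout saline lungs, 11.70, 11.64 and 11.69 in wild type bleomycin lungs, and 11.50, 11.22 and 11.42 in wild type saline lungs. Wild type saline arrays were the 3 lowest. It rose with bleomycin in wild type lungs by 0.30 ± 0.09 (adjusted p = 0.0194), a call that no longer held once wild type saline replicate 2 or wild type bleomycin replicate 1 or 3 was left out (adjusted p between 0.0508 and 0.0683). On its next brightest probe set the change was 0.11, which did not pass (adjusted p = 0.534). Its average response over genotypes, 0.18 ± 0.06 (adjusted p = 0.0456), held only when wild type saline replicate 1 or knockout saline replicate 1 was left out (adjusted p between 0.0544 and 0.113 in the other 10 fits that leave out 1 array).

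Ier5, a stress-inducible regulator of heat shock factor, had log2 values of 9.50, 9.28 and 9.42 in knockout bleomycin lungs, 9.23, 9.0 and 9.16 in knockout saline lungs, 9.37, 9.36 and 9.57 in wild type bleomycin lungs, and 9.09, 9.11 and 9.45 in wild type saline lungs. Knockout bleomycin arrays and wild type bleomycin arrays all lay above the knockout saline arrays. For Ier5 the other pairs of groups overlapped. It rose on average over genotypes by 0.24 ± 0.08 (adjusted p = 0.0344), a call that held only when wild type saline replicate 3, wild type bleomycin replicate 1 or 2, knockout saline replicate 1 or knockout bleomycin replicate 2 was left out (adjusted p between 0.056 and 0.0896 in the other 7 fits that leave out 1 array). On its next brightest probe set the value was 0.38 and did not pass (adjusted p = 0.147). Ier2, a nuclear protein induced by growth factors, lay between 9.33 and 10.04 and Ier3, an inhibitor of cell death, between 10.97 and 11.60. For both, knockout saline arrays lay above wild type saline arrays, by 0.47 ± 0.12 (adjusted p = 0.133) and 0.25 ± 0.12 (adjusted p = 0.521), without passing. Sik1, a kinase that feeds back on CREB coactivators, did the same at 6.46 to 6.54 in knockout saline and 6.12 to 6.43 in wild type saline lungs, a difference of 0.25 ± 0.11 (adjusted p = 0.482). Arc, a synaptic protein of neurons, lay between 3.43 and 4.05, at the dim end, and passed in no comparison.

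The listed genes differed in their spread within groups, with pooled SDs between 0.09 and 0.48 on the log2 scale. The mean deviation of the 31 genes from their 12-array means was -0.14, -0.29 and -0.32 on the 3 wild type saline arrays and -0.03 to 0.22 on the other 9, highest on knockout saline replicate 3. Wild type saline replicate 1 exceeded its group mean by 0.73 for Egr1, 0.85 for Fos, 0.54 for Nr4a1 and 0.35 for Junb. Wild type bleomycin replicate 1 exceeded its group mean by 0.45, 0.28, 0.45 and 0.31 for the same 4 genes. In knockout saline lungs replicate 3 was the highest for Egr1 (0.25) and Nr4a1 (0.44), and replicate 2 for Fos (0.23). Knockout bleomycin replicate 3 was the highest of its group for Fos (0.48), Atf3 (0.38) and Dusp1 (0.32). The pooled SD within groups was highest for Nr4a3 (0.48), Fos (0.47), Egr1 (0.43) and Nr4a1 (0.38).

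Other genes of the same pathways were read from lists written with earlier results of these data known. The counts are to be read beside the share of all genes, which was 13.3% higher and 14.4% lower with bleomycin in wild type lungs, 1.98% and 1.29% with bleomycin in knockout lungs, and 7.52% and 7.89% for knockout against wild type after bleomycin. After saline 0.297% of all genes were higher in knockout lungs and 0.192% lower. Among 7 genes of serum response factor and its cofactors, 1 (Elk3) rose with bleomycin in wild type lungs and none passed in the other pairs of groups. Among 12 CREB and ATF genes, Crem rose with bleomycin in both genotypes, by 0.84 in knockout and 0.75 in wild type lungs, and Atf5 and Creb1 fell in wild type. Creb5 was lower in knockout bleomycin lungs than in wild type ones, with a difference of -0.52 (adjusted p = 0.0194). Of 8 other AP-1 partners, 4 rose in wild type lungs, Batf3 by 1.33, Maf by 0.54 and Maff by 0.34 among them, while Jdp2, a repressor of AP-1, fell by 0.45. Batf3, Maff and Maf were lower in knockout than in wild type bleomycin lungs, with differences of -0.94, -0.45 and -0.41.

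Upstream of the MAP kinases, 9 EGF receptor ligands and receptors were measured. Ereg (epiregulin) had log2 values of 3.39, 4.40 and 4.15 in knockout bleomycin lungs, 3.21 to 3.37 in knockout saline lungs, 6.45, 6.77 and 5.95 in wild type bleomycin lungs and 3.08 to 3.29 in wild type saline lungs. It rose with bleomycin in wild type lungs (adjusted p = 1.56e-06) and was lower in knockout than in wild type bleomycin lungs (adjusted p = 4.37e-05). Its saline values lie at the dim end of the arrays and were not shown to lie above background, so no size is given for the change. Hbegf rose by 0.63 in wild type lungs and was lower in knockout bleomycin lungs, with a difference of -0.48, while Tgfa and Erbb3 fell in wild type lungs. Of 14 other feedback genes of ERK, 4 rose and 2 fell in wild type lungs (beside 27.7% of all genes in either direction), among them Spry4 (0.87) and Spred1 (0.55), and 2 rose and 1 fell in knockout lungs (beside 3.26%). Of 15 ERK, JNK and p38 kinases, 4 rose and 1 fell in wild type lungs and none passed in knockout lungs, both near those shares. Map3k8, which activates ERK downstream of toll-like receptors, rose by 0.56 in wild type lungs and was lower in knockout bleomycin lungs, with a difference of -0.73.

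Of 18 early inflammatory and NF-kB feedback genes, 7 rose with bleomycin in wild type lungs, beside 13.3% of all genes. In knockout lungs limma called none, beside 3.26% of all genes, at which share a count of 0 in 18 says nothing about the list. Socs3, the feedback inhibitor of interleukin-6 signalling, rose by 2.27 in wild type lungs and was lower in knockout than in wild type bleomycin lungs, with a difference of -1.58. After saline, 1 of the 18 was higher in knockout lungs, Il1b, by 1.53 (adjusted p = 0.0111). Its log2 values were 8.16, 7.84 and 8.68 in knockout saline lungs and 6.78, 6.66 and 6.63 in wild type saline lungs, without overlap. Of 13 heat shock genes, none passed after saline between the genotypes and all 13 had differences below 0, down to -0.85. With bleomycin Dnajb1 rose by 0.77 in knockout lungs, the only heat shock gene to pass between pairs of groups. Of 16 stress kinase and growth arrest genes, 1 (Rgs2, by 0.48) was higher in knockout saline lungs. Of 10 glucocorticoid-induced genes, 1 (Fkbp5, by -1.37, adjusted p = 0.0448) was lower after saline and 5 after bleomycin.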

How the data were processed

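Whole-lung RNA was hybridized to Affymetrix arrays, 1 per sample. The deposited values are log2 probe set summaries, which the authors made with affy and RMA per the submitters' processing notes, which also name limma; versions, and a genome build, are not given in the sources used here. RMA quantile-normalizes arrays together, so a shift shared by most genes is not visible. Detection calls were not used, so a dim probe set was judged by its level alone. The annotation gives 1 gene for 34958 of 45101 probe sets, several genes for 932 and no gene for 9211. Of the 34958, 34754 matched a mouse gene table. Each of 18194 genes was tested on its brightest probe set, without a filter on dim signal.

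All 12 arrays entered 1 fit with limma 3.58.1 (R 4.3.3), with a mean per group and no block. Then eBayes was applied (8 residual and 4.86 prior degrees of freedom), with Benjamini-Hochberg over all genes and a threshold of 0.05, two-sided. With 3 arrays a group, their number limits the precision. The steps were tested on simulated data. Alternatives were genes with a mean log2 value of at least 5 only, subtraction of array medians, quantile normalization repeated, and eBayes with a trend and robust variances. Others were each gene's mean over its probe sets and the next brightest probe set (chosen after those of Egr3 and Jun were seen to disagree). Further ones were only the groups compared, array weights, the replicate number as a block, and each array left out in turn. The block was a fixed term in the model. The installed statmod was 1.5.0. Promoter windows came from RefSeq, GRCm38.p6. Python 3.11.15 with pandas 2.3.3 and matplotlib 3.10.9 made tables and figures.

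The 31 genes, the pathway lists and the marker lists were chosen with earlier results of these data known, so no pattern here is independent support for those results. Values per array are given for every listed gene that passed in any of 7 comparisons. From other lists up to 4 genes with the smallest p are named.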

Additional observations from a re-analysis of the deposited data

Results flagged for a closer look

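For 5 of the 31 genes the bleomycin response differed between the genotypes by a direct test of the difference in limma, beside 5.02% of all genes. The knockout minus wild type difference of responses was -1.739 for Egr1, -1.713 for Fos, -1.373 for Junb and -1.105 for Myc, and 0.543 for Jun. The single responses of Egr1 were -1.04 in knockout and 0.70 in wild type lungs, and those of Fos -1.03 and 0.68, none past the threshold alone. For both genes the genotypes differed after saline and overlapped after bleomycin. Their difference of responses reuses the saline arrays of those calls and is not separate evidence from them. Those of Junb were -0.24 in knockout and 1.13 in wild type lungs, those of Myc 0.26 and 1.37, and those of Jun -0.05 and -0.59, where the wild type response passed for all 3 genes. When each of the 12 arrays was left out in turn, the difference of responses passed in 12 fits for Junb and Myc, 6 for Egr1, 3 for Fos and 1 for Jun, and on the other Jun probe set it was 0.21 (adjusted p = 0.687).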

How the results depend on the processing

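The 80 values of single genes counted here were every call of a listed gene and all 7 comparisons of Fos, Egr1, Atf3, Jun, Dusp1 and Zfp36. Not all of them are given in the text. Of the 80, 75 stayed on their side of the threshold with array medians subtracted, 74 with quantile normalization repeated and 74 with trend and robust eBayes. With the mean of all probe sets 69 did, with array weights 67 and with the replicate block 72, and none reversed in any of these. With only the arrays of the 2 groups compared, 31 of 44 did, and when 1 array was left out, 792 of 960. On the next brightest probe set, for genes with more than 1, 10 of these values stayed on their side and 14 no longer passed. A further 4 values that newly passed and 1 that reversed were added only because they passed there. Values outside the 80 that passed on neither probe set were not counted, so the 29 give no rate. That fit adjusts p over more features. There, Nr4a3 had a change with bleomycin in wild type lungs of -0.40 (adjusted p = 0.0301), against 0.30 on the brightest, which did not pass. On that next probe set wild type saline replicate 2 read the highest of its group, and the cause was not tested. Calls lost there were those of Btg1, Fosl1, Fosl2 and Jun for bleomycin in wild type lungs, Fosl2 in knockout lungs, Btg2 after saline, Fosl2 and Jun between genotypes after bleomycin, Jun for the difference of responses, and Btg1, Fosl1, Fosl2, Ier5 and Jun for bleomycin on average. Array weights gave 14 listed genes for bleomycin in wild type lungs (9 in the fit reported), 6 for bleomycin in knockout lungs (1) and 13 for knockout against wild type after saline (6). Over all genes array weights gave more calls too. With bleomycin in wild type lungs they gave 3367 higher and 3808 lower, against 2428 and 2617 in the fit reported. In knockout lungs they gave 752 and 534, against 360 and 234. After saline they gave 520 higher and 585 lower, against 54 and 35, and subtracting array medians gave 37 and 40. In knockout lungs, subtracting array medians gave 429 genes higher and 139 lower with bleomycin, against 360 and 234. For bleomycin in knockout lungs the count of listed genes was 2 with trend and robust eBayes and 4 with only the arrays of the 2 groups, and limma called 0 with the mean of all probe sets, where 16 had an unadjusted p under 0.05. After saline limma called 0 with only the arrays of the 2 groups, which leaves fewer samples for the spread, where 16 had an unadjusted p under 0.05. Quantile normalization repeated gave 6 after bleomycin between genotypes (10), and the mean of all probe sets gave 3 for the difference of responses (5). Leaving out 1 array gave 8 to 11 for bleomycin in wild type, 0 to 4 for bleomycin in knockout, 0 to 7 for genotype after saline, 5 to 11 for genotype after bleomycin, 2 to 7 for the difference of responses, 9 to 11 for bleomycin on average (12) and 10 to 12 for genotype on average (12). Deviations of same-numbered arrays from their group means had correlations of -0.297 to 0.203. The labels do not state whether equal numbers share a litter or day, and these correlations cannot exclude it. With the replicate number as a block the counts were 9 for bleomycin in wild type, 1 for bleomycin in knockout and 7 for genotype after saline. They were 7 for genotype after bleomycin and 4 for the difference of responses. Over all genes the block gave, in that order, 2276 higher and 2389 lower, 280 and 169, 45 and 31, 1166 and 1249, and 205 and 396. Counts over all genes also moved when 1 array was left out. After saline 10 were higher and 14 lower without knockout saline replicate 3.

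Depth is not defined for arrays. Fosb, Fosl1 and Arc had means under 5. The 3 arrays per group, with no statement that they are separate animals, limit every comparison, and the time from death to RNA extraction is not in the labels.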
